A study of Mus musculus with 6 samples.

Results

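The genes of glycolysis, gluconeogenesis, glycogen and the pentose phosphate pathway were examined in spontaneous liver tumors of male C3H/HeN mice. The set held 42 genes, chosen by name for their place in these pathways, with earlier results of these data known, out of 31997 genes with a probe on the arrays. Messenger RNA was measured on Agilent one-color arrays in 3 normal livers and 3 liver tumors. All the mice were 74 to 75 weeks old and were F2 animals of the untreated control arm of a gestational arsenic project, kept on a standard diet and tap water. According to the methods the 3 tumors carried a Ha-ras mutation and were macroscopic, spontaneous lesions. The labels do not tell whether a tumor and a normal liver came from the same mouse, nor whether the samples of a group came from separate mice, so that the p-values measure the spread between these samples.

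The liver both burns and makes glucose. Glycolysis breaks glucose down to pyruvate and lactate, gluconeogenesis rebuilds glucose from lactate and amino acids for release into the blood, and glycogen is the store between them. The pentose phosphate pathway branches off at glucose phosphate, giving NADPH for biosynthesis and antioxidant defense in its oxidative arm and ribose for nucleotides. Hepatocytes use liver forms of several of these enzymes (Pfkl, Pklr, Gys2 and Pygl among them), and tumors often turn to the forms of muscle, brain or fetal tissue.

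Each value below is an expression value, the spot's processed signal divided by the 75th percentile of its array, so that 1 is the level of that percentile. The 75th percentile itself ran from 124 to 177 units (normal livers) and from 171 to 183 (tumors), and no spot was saturated. The normal livers were hybridised on 1 slide and the tumors on another, in separate scans, so that slide, scan and tissue cannot be told apart in any comparison here. The summed level of 8 hepatocyte markers was 6866 to 7642 in normal livers and 6919 to 7269 in tumors, while 2 of the 8 were called lower (Cps1 at -1.48 and Tat at -1.43 on the log2 scale) and 1 higher (Apoa1 at 0.90). Alb, Serpina1a, Fgb and Ttr hold most of this sum (means of 2273, 1918, 1307 and 993 in normal livers). Cps1 and Tat, with means of 69.9 and 95.1 there, hardly move it. The summed level of 5 proliferation markers was 0.910 to 1.42 in normal livers and 10.4 to 17.4 in tumors. The 4 skeletal muscle markers and the 3 adipocyte markers were too dim to be tested.

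Among the members measured in both groups, the largest log2 fold changes were upward at the entry to the pentose phosphate pathway and downward in gluconeogenesis. G6pdx and Pgd, both enzymes of the oxidative pentose phosphate arm, were higher in the tumors, while G6pc and Pck1, which act at the end and early in gluconeogenesis, were lower. Most enzymes of the glycolytic trunk passed no threshold. Of the 42 genes, 40 could be tested and 16 differed at an adjusted p under 0.05 (limma, Benjamini-Hochberg over all 24898 tested probes), 5 higher and 11 lower. The share called among all 18566 tested genes was 34.2% (13.1% higher and 21.0% lower), and the 16 of 40 members are a share near it. Groups did not overlap for 20 of the 40 members, against 51.8% of all tested genes. Of the 16, Pdk3 entered the test through the tumors alone, and its call rests on normal livers at background. Among the 39 members that stood well above background on at least 1 array of each group, 15 were called, 4 higher and 11 lower, against 32.5% of 17970 such genes (11.4% higher and 21.2% lower). Called changes of at least 2-fold were seen in 2 of the 39 upward and 4 downward, against 6.05% and 6.54% of such genes (7.8% and 6.84% of all tested genes). The median log2 fold change of the members was -0.07, against -0.13 over all tested genes. In whole tissue, fewer cells of a type and less RNA per cell cannot be told apart, and this holds for every gene below.

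**Figure D1:**
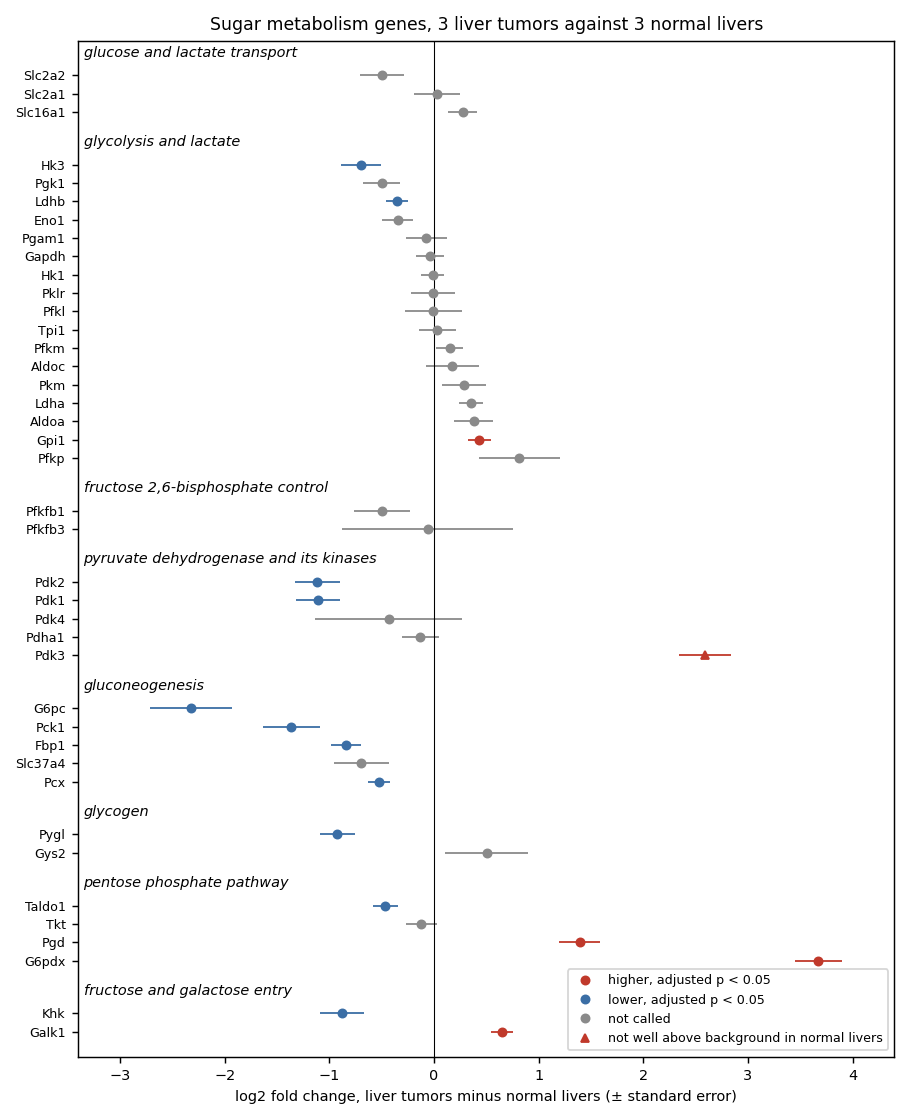
Log2 fold change of each tested gene, liver tumors minus normal livers (x axis), with its standard error, grouped by role; red and blue points were called higher and lower by limma, gray points were not called, and the triangle marks a gene not well above background in normal livers. G6pdx (3.67) and Pgd (1.39) stand to the right and G6pc (-2.32) and Pck1 (-1.37) to the left, while most glycolytic enzymes lie within 0.5 of 0.

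**Figure D2:**
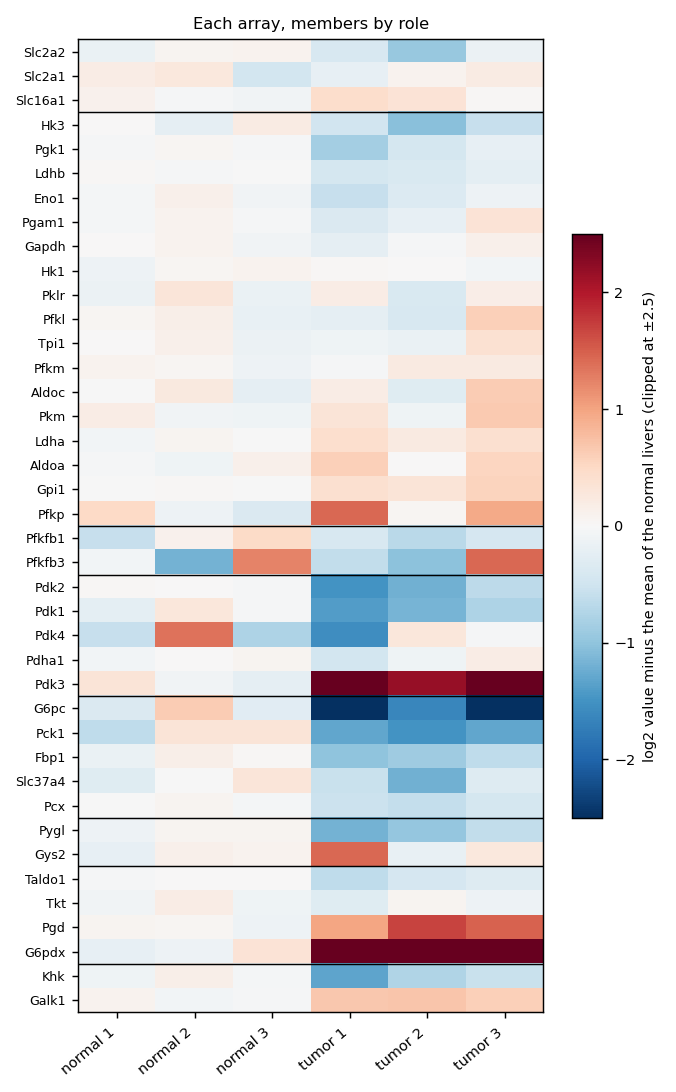
Log2 value of each tested gene on each array (columns) minus the mean of the 3 normal livers, with colors clipped at 2.5 in either direction and lines between the roles. The 5 tested genes of gluconeogenesis are below the normal mean in all 3 tumors, and Gys2 is high in liver tumor 1 alone.

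Glucose and lactate transport showed no called change in its 3 genes. Slc2a2, the low-affinity glucose carrier of hepatocytes, had expression values of 51.1, 59.5 and 60.8 in normal livers and 43.2, 29.7 and 51.2 in tumors. The groups overlapped slightly and the log2 fold change was -0.50 ± 0.21 (SE, adjusted p = 0.120, limma). Slc2a1, the widespread glucose carrier that many tumors raise, ran from 2.55 to 4.19 in normal livers and from 3.02 to 4.01 in tumors, a log2 fold change of 0.03 whose sign turned when single arrays were left out (-0.20 without normal liver 3). Slc16a1, a lactate carrier, was at 0.312 to 0.359 in normal livers and 0.340 to 0.449 in tumors (log2 fold change 0.27, adjusted p = 0.185).

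In glycolysis proper, 3 of 17 tested genes were called, Gpi1 higher and Hk3 and Ldhb lower, against 34.2% of all tested genes, and all 3 changes were under 2-fold. Gpi1, which turns glucose phosphate into fructose phosphate, was at 94.1, 96.3 and 93.4 in normal livers and at 124, 119 and 140 in tumors. All 3 tumors lay above all 3 normal livers, by a log2 fold change of 0.43 ± 0.11 (adjusted p = 0.0268), and its 3 probes gave 0.38 to 0.43. The call was lost, with adjusted p of 0.0538 to 0.0773, on leaving out any array other than liver tumor 2, and with spike-in scaling (0.65, adjusted p = 0.0594) or without the filter on dim probes (adjusted p = 0.120).

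Hk3, a hexokinase found mainly in myeloid cells, had values of 0.400, 0.344 and 0.461 in normal livers and 0.286, 0.193 and 0.267 in tumors. The groups did not overlap, and the log2 fold change was -0.70 ± 0.19 (adjusted p = 0.0335). Leaving out any array other than liver tumor 1 ended the call (adjusted p 0.0506 to 0.0942), as did quantile normalization, spike-in scaling (-0.48) and testing without the filter on dim probes (adjusted p = 0.0528, 0.190 and 0.105). Of 7 macrophage markers, 5 were called lower and 0 higher in tumors, beside 21.0% and 13.1% of all tested genes. The summed level of these 7 was 100.2 to 172 in normal livers and 51.2 to 84.4 in tumors, with none of them at 0. Of 6 neutrophil markers 3 could be tested and 0 were called, with summed levels of 5.07 to 7.45 and 5.34 to 17.8. The part of these cells in the Hk3 difference was not tested.

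The hexokinase of most adult tissues, Hk1, depended on the probe. Its brightest probe, designed on the accession J05277, read 242, 273 and 279 in normal livers and 268, 267 and 250 in tumors (log2 fold change -0.01). The brighter of the 2 probes with a RefSeq accession, taken up after the values were seen, read 1.38, 1.62 and 1.55 in normal livers and 5.71, 1.90 and 3.19 in tumors. There the groups did not overlap and the log2 fold change was 1.11 ± 0.37, which missed the threshold (adjusted p = 0.0635). The third probe gave 0.82 (adjusted p = 0.0573), and the mean of the 3 probes passed the threshold at 0.64 (adjusted p = 0.0448). Hk2, the hexokinase of muscle and of many tumors, was well above background on liver tumor 2 only of the 6 arrays and was not tested.

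The middle of glycolysis showed overlapping or closely spaced groups. The phosphofructokinase subunits, which set the committed step, gave log2 fold changes of -0.01 for Pfkl, 0.15 for Pfkm and 0.82 ± 0.39 for Pfkp (adjusted p = 0.991, 0.400 and 0.152). Pfkp, the platelet type, was at 0.269, 0.176 and 0.148 in normal livers and at 0.520, 0.199 and 0.371 in tumors, so that liver tumor 2 lay within the normal range. On leaving out 1 array, Pfkp passed the threshold only without liver tumor 2 (1.20, adjusted p = 0.0397). It also passed with spike-in scaling (1.04, adjusted p = 0.0199). Its second probe was well above background on 1 array of each group and was not tested.

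The aldolases split fructose 1,6-bisphosphate into 3-carbon sugars. Aldoa, the muscle form, was at 69.7 to 82.0 in normal livers and at 113, 75.3 and 109 in tumors (log2 fold change 0.38 ± 0.18, adjusted p = 0.157). On leaving out 1 array it passed the threshold only without liver tumor 2 (0.56, adjusted p = 0.0373). Aldoc, the brain form, gave 0.17 and turned to -0.06 without liver tumor 3. Tpi1, Gapdh and Pgam1, which act below aldolase, gave 0.03, -0.04 and -0.07, and the 8 Gapdh probes lay between -0.11 and -0.01. The sign of Gapdh and Pgam1 turned upward under normexp, quantile and spike-in scaling.

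Pgk1 and Eno1, the phosphoglycerate kinase and enolase of most tissues, were lower in each tumor than in each normal liver without being called. Pgk1 was at 90.4, 96.2 and 90.9 in normal livers and at 51.1, 68.4 and 79.8 in tumors (log2 fold change -0.50 ± 0.18, adjusted p = 0.0710). On leaving out 1 array it passed the threshold only without liver tumor 3 (-0.64, adjusted p = 0.0366), and it also passed with a trend in eBayes (adjusted p = 0.0412). The array design places the Pgk1 probe, and the brightest Gapdh probe, on a chromosome other than the gene's own, so that near-identical copies may share these signals. Eno1 was at 142, 161 and 137 in normal livers and at 98.5, 115 and 134 in tumors, a log2 fold change of -0.35 ± 0.15 (adjusted p = 0.116).

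Pyruvate kinase makes pyruvate, and neither the liver form Pklr nor the form of other tissues, Pkm, was called. Pklr was at 2.31, 3.14 and 2.28 in normal livers and at 2.88, 1.97 and 2.86 in tumors (log2 fold change -0.01, adjusted p = 0.974). Pkm was at 1.81, 1.5 and 1.48 in normal livers and at 2.0, 1.47 and 2.51 in tumors (0.29 ± 0.21, adjusted p = 0.329). Both groups overlapped for either gene. The array design lists several Pkm transcripts for the probe used, so that the splice forms of Pkm were not told apart here.

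Of the lactate dehydrogenase subunits, Ldha favors lactate formation and Ldhb is the heart type. Ldha was at 535, 592 and 557 in normal livers and at 752, 656 and 744 in tumors. The groups did not overlap, yet its brightest probe missed the threshold (0.35 ± 0.11, adjusted p = 0.0520), while its other 2 probes passed it (0.51, adjusted p = 0.0199, and 0.47, adjusted p = 0.0261). Ldhb was at 1.31, 1.25 and 1.27 in normal livers and at 0.942, 0.983 and 1.08 in tumors, a called log2 fold change of -0.35 ± 0.11 (adjusted p = 0.0445). It lost the call without any array other than liver tumor 3 (adjusted p 0.0967 to 0.121), and under normexp (-0.23), quantile (-0.33) and spike-in scaling (-0.13, adjusted p = 0.114, 0.0511 and 0.770) or without the filter on dim probes (adjusted p = 0.173).

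The Pfkfb enzymes make and break down fructose 2,6-bisphosphate, an activator of phosphofructokinase, and neither of the members among them was called. Pfkfb1, the liver form, was at 7.79, 12.5 and 16.1 in normal livers and at 8.81, 7.25 and 8.63 in tumors (log2 fold change -0.50 ± 0.27, adjusted p = 0.194). On leaving out 1 array it passed the threshold only without normal liver 1 (-0.79, adjusted p = 0.0312). Pfkfb3, an inducible form, was at 1.48, 0.687 and 3.66 in normal livers and at 1.02, 0.763 and 4.22 in tumors, a spread within each group that was larger than the difference between them.

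Liver forms were then set against the forms of other tissues within each array, where the array scaling cancels. Of the 12 pairs compared 8 are reported, and 3 of these 8 had no overlap between normal livers and tumors, against 5 of all 12. With 3 against 3 arrays the exact two-sided permutation test cannot give a p under 0.1, and no pair passed after adjustment over the 12 pairs (lowest adjusted p = 0.24). The difference was largest for Pygb against Pygl, the brain and liver glycogen phosphorylases. The log2 ratio of Pygb to Pygl was -8.99, -9.64 and -9.29 in normal livers and -3.72, -4.13 and -4.40 in tumors. It rose 37.3-fold on average (log2 difference 5.22 ± 0.27, exact permutation p = 0.1). A ratio between probes holds each probe's own response, so that only its difference between the groups is read here.

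The other pairs without overlap, G6pc3 over G6pc and Gys1 over Gys2, had smaller differences. The log2 ratio of G6pc3, the widespread glucose-6-phosphatase, to G6pc was 2.35 ± 0.49 higher in tumors (exact permutation p = 0.1), while G6pc3 itself was at 5.48 to 5.65 in normal livers and 5.53 to 5.90 in tumors. Gys1 over Gys2, the muscle and liver glycogen synthases, changed by -0.76 ± 0.41 (exact permutation p = 0.1), and the low ratio of liver tumor 1 (-8.18, against -6.92 and -7.11 in the other tumors) weighed most in it. The normal livers were at -6.50, -6.88 and -6.54, so that liver tumor 2 lay barely below normal liver 2.

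For the other 5 pairs reported the groups overlapped. The tumor minus normal differences were 0.53 for Slc2a1 over Slc2a2, 0.82 for Pfkp over Pfkl and 0.30 ± 0.23 for Pkm over Pklr (exact permutation p = 0.3 for each). They were 0.15 for Pfkm over Pfkl and 0.44 for Pfkfb3 over Pfkfb1 (exact permutation p = 0.7 for each), and both turned in sign when 1 array was left out (-0.08 without liver tumor 2 for Pfkm over Pfkl, and -0.20 without normal liver 2 and -0.28 without liver tumor 3 for Pfkfb3 over Pfkfb1).

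**Figure D3:**
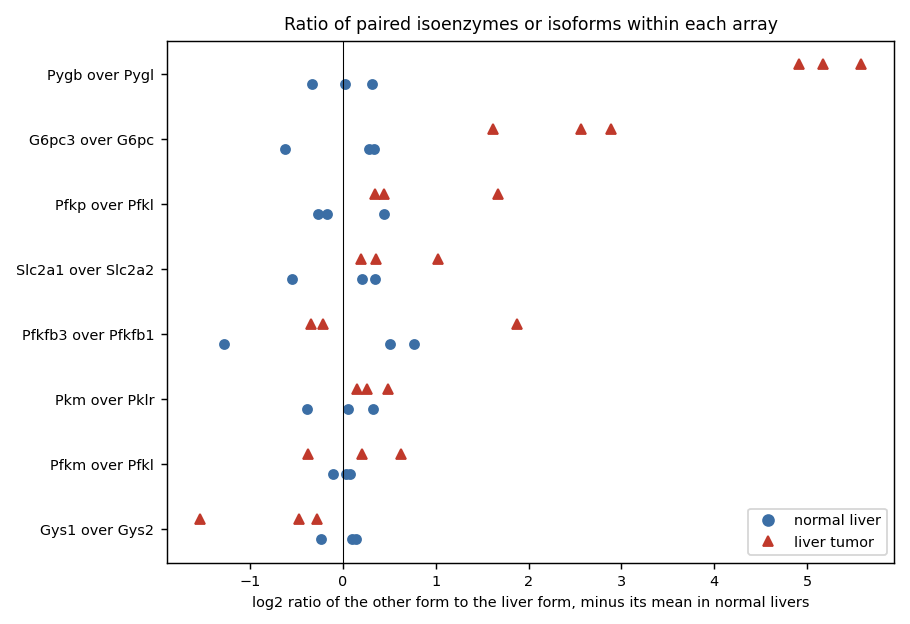
Log2 ratio of the form of other tissues to the liver form within each array, minus its mean in normal livers (x axis), for the 8 pairs reported; circles are normal livers and triangles liver tumors. Pygb over Pygl is far to the right in all 3 tumors, Pkm over Pklr overlaps between the groups, and Gys1 over Gys2 is lower in all 3 tumors.

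Within mitochondria the pyruvate dehydrogenase complex turns pyruvate into acetyl-CoA, and its kinases Pdk1 to Pdk4 switch the complex off. Of the 5 genes Pdk1 and Pdk2 were called lower, while Pdk3, called higher, could be measured in the tumors only. Pdk2, the main kinase of liver (chr11:95026258-95041371, GRCm38.p6), was at 10.3, 10.1 and 9.76 in normal livers and at 3.58, 4.34 and 6.37 in tumors. Every tumor was below every normal liver, by a log2 fold change of -1.12 ± 0.21 (adjusted p = 0.0105), and its other probe gave -1.10. The study placed Pdk2 on its own shortlist from these same samples, so that its direction here is not independent evidence.

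Pdk1, a kinase induced by low oxygen, was at 4.10, 5.89 and 4.75 in normal livers and at 1.84, 2.17 and 2.85 in tumors. The groups were apart, with a log2 fold change of -1.11 ± 0.21 (adjusted p = 0.00987). Pdk3 was too dim to stand above background in the normal livers (0.0345, 0.0260 and 0.0238) and was dim in tumors (0.222, 0.125 and 0.168). It was at least 1.29-fold higher in tumors, the mean of the tumors being set against the lowest signal well above background in the normal livers. The adjusted p of the limma fit (0.00110) rests on normal values at background and does not test that bound. The call was lost with normexp background correction (0.46, adjusted p = 0.0912). Pdk4, the kinase of fasting, was at 1.17, 4.51 and 1.02 in normal livers and at 0.596, 2.14 and 1.71 in tumors, with overlap (-0.43 ± 0.70). Without normal liver 2 its sign turned to 0.25.

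Pdha1, the catalytic subunit that the kinases phosphorylate, gave -0.13 with overlapping groups (adjusted p = 0.608). Of the other genes listed with the complex, outside the 42, 7 of 9 tested were called, 6 lower and 1 higher. Among all tested genes 34.2% were called and 21.0% were lower. The lower genes were Pdhb, Dlat, Dld and Pdhx, which code for subunits of the complex, and Pdp2 and Pdpr, which code for parts of its phosphatases, with log2 fold changes from -0.56 for Pdhx to -1.14 for Pdpr. The higher gene was Pdp1, a phosphatase that reactivates the complex, at 0.152, 0.202 and 0.183 in normal livers and 0.897, 0.700 and 0.624 in tumors (2.04 ± 0.18, adjusted p = 0.000812), well above background on 2 of the normal arrays.

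Of the 5 tested members in gluconeogenesis 4 were called, all lower, and none of the 5 showed overlap between the groups, beside 21.0% called lower and 51.8% without overlap among all tested genes. Of 8 other tested genes listed with gluconeogenesis, 3 were called, all lower (Gpd1, Mdh1 and Mdh2, dehydrogenases that move reducing equivalents, at -0.42, -1.09 and -0.56), and 4 showed no overlap. G6pc, the glucose-6-phosphatase that releases free glucose, was at 106, 213 and 112 in normal livers and at 18.7, 44.0 and 24.4 in tumors. The highest tumor was below the lowest normal liver, and the mean fell 5.01-fold (log2 fold change -2.32 ± 0.39, adjusted p = 0.00704). Pck1, which makes phosphoenolpyruvate and is under hormonal control, was at 92.1, 178 and 179 in normal livers and at 58.4, 50.6 and 58.1 in tumors. The tumors were close together and normal liver 1 was the lowest of its group (log2 fold change -1.37 ± 0.27, adjusted p = 0.0120).

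G6pc and Pck1 showed the largest falls among the members, and the 250 bases before their annotated starts are therefore printed, from RefSeq on GRCm38.p6. They lie at chr11:101367466.0-101367715.0 and chr2:173152823.0-173153072.0, both on the plus strand. Capitals mark matches on either strand to TGACNNNGC (the antioxidant response element core), TGACG (the cyclic AMP response element half-site), CAAAACA (the insulin response element core), CACGTG (an E-box), ACGTG (the hypoxia response element core, which lies within every E-box) and TATAAA (the TATA box).
G6pc: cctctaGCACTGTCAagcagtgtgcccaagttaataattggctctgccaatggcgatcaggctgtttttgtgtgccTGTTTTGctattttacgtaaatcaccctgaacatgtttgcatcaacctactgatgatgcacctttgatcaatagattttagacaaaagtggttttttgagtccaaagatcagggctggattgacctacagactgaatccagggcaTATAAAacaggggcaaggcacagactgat
Pck1: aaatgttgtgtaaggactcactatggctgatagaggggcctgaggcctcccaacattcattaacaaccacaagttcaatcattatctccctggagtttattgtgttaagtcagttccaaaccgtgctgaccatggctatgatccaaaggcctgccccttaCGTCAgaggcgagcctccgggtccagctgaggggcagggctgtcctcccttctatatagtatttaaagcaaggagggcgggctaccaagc
In G6pc the matches were GCACTGTCA, which reads as TGACNNNGC on the other strand, 244 bases before the start, TGTTTTG, which reads as CAAAACA, 174 bases before it, and TATAAA 29 bases before it. In Pck1 the one match was CGTCA, which reads as TGACG, 90 bases before the start. Of 32851 mouse promoters of this length, TGACG was in 17.8%, CAAAACA in 5.56% and TATAAA in 12.4%, so that each match is a description of the letters and no sign of binding.

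The other tested genes of gluconeogenesis, Fbp1, Pcx and Slc37a4, showed smaller log2 fold changes. Fbp1, the fructose-1,6-bisphosphatase that opposes phosphofructokinase, was at 668, 825 and 760 in normal livers and at 372, 405 and 483 in tumors. All 3 tumors were below the normal range (log2 fold change -0.84 ± 0.15, adjusted p = 0.00769). Pcx, the mitochondrial carboxylase that turns pyruvate to oxaloacetate, was at 171, 181 and 167 in normal livers and at 120, 114 and 127 in tumors (-0.52 ± 0.10, adjusted p = 0.0120), and lost the call without normal liver 2 (-0.49, adjusted p = 0.0513), with quantile normalization (-0.32, adjusted p = 0.0577) and without the filter on dim probes (adjusted p = 0.0672). Slc37a4, which carries glucose phosphate to the phosphatase in the endoplasmic reticulum, was at 49.98, 61.5 and 75.9 in normal livers and at 41.7, 26.8 and 49.0 in tumors, without overlap but not called (-0.70 ± 0.26, adjusted p = 0.0855). Pck2, the mitochondrial form of Pck1, was well above background on 0 of 6 arrays. Scaled by the spike-in controls, Fbp1 and Pcx were no longer called (adjusted p = 0.104 and 0.440), while G6pc and Pck1 were.

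Of the glycogen genes among the members, Pygl was called and Gys2 was not. Pygl, the liver phosphorylase that releases glucose from glycogen, was at 161, 183 and 183 in normal livers and at 77.1, 89.1 and 115 in tumors. The groups did not overlap (log2 fold change -0.92 ± 0.17, adjusted p = 0.00907), and the call was lost only with spike-in scaling among the alternatives to the scaling, filter and arrays (-0.70, adjusted p = 0.0640). Gys2, the liver glycogen synthase, was at 45.5, 57.1 and 55.6 in normal livers and at 142, 46.4 and 62.8 in tumors, so that liver tumor 1 was high and the others lay near the normal range (0.50 ± 0.40, adjusted p = 0.366). Its second probe gave 19.1 in liver tumor 1 and 5.91 to 8.81 on the other 5 arrays.

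The brain phosphorylase Pygb, the partner of Pygl, was at 0.316, 0.229 and 0.293 in normal livers and at 5.84, 5.07 and 5.44 in tumors. Its 3 tumor values were close together and far above the normal ones (4.30 ± 0.15, adjusted p = 3.49e-05). Of 16 other tested glycogen genes 4 were higher and 2 lower (37.5% called), near the 34.2% of all tested genes. Ppp1r3c, a glycogen-targeting subunit of protein phosphatase, was at 6.55, 8.14 and 11.1 in normal livers and at 2.80, 4.47 and 2.94 in tumors (-1.33 ± 0.26, adjusted p = 0.0108).

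The 4 members of the pentose phosphate pathway were all tested, with G6pdx and Pgd called higher, Taldo1 called lower and Tkt not called. Of all tested genes 34.2% were called. G6pdx, the glucose-6-phosphate dehydrogenase that commits glucose to the pathway and makes NADPH, was at 1.16, 1.22 and 1.70 in normal livers and at 13.2, 20.1 and 19.0 in tumors. The lowest tumor was far above the highest normal liver, and the mean was 12.8-fold higher (log2 fold change 3.67 ± 0.22, adjusted p = 0.000219). Pgd, the phosphogluconate dehydrogenase that makes the second NADPH, was at 6.44, 6.33 and 5.57 in normal livers and at 12.2, 19.8 and 17.0 in tumors. Again all tumors were above all normal livers (1.39 ± 0.19, adjusted p = 0.00399), with liver tumor 1 the lowest of its group for both enzymes.

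The non-oxidative arm returns pentoses to glycolysis. Tkt, its transketolase, was at 57.7, 69.5 and 57.0 in normal livers and at 49.5, 63.8 and 56.3 in tumors, with overlap (-0.12 ± 0.15, adjusted p = 0.561). Taldo1, its transaldolase, was at 120, 124 and 124 in normal livers and at 78.4, 91.2 and 98.0 in tumors. The groups were apart (-0.46 ± 0.12, adjusted p = 0.0287), but the call was lost without any array other than liver tumor 3 (adjusted p 0.0644 to 0.0893) and under normexp, quantile and spike-in scaling (adjusted p 0.0642, 0.130 and 0.569) or without the filter on dim probes (adjusted p = 0.118). Of 6 other tested genes of the pathway, Rpe, Shpk and Rbks, which handle ribulose, sedoheptulose and ribose, were lower (-0.48, -0.80 and -0.58) and 0 were higher. Among all tested genes 21.0% were called lower and 13.1% higher.

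**Figure D4:**
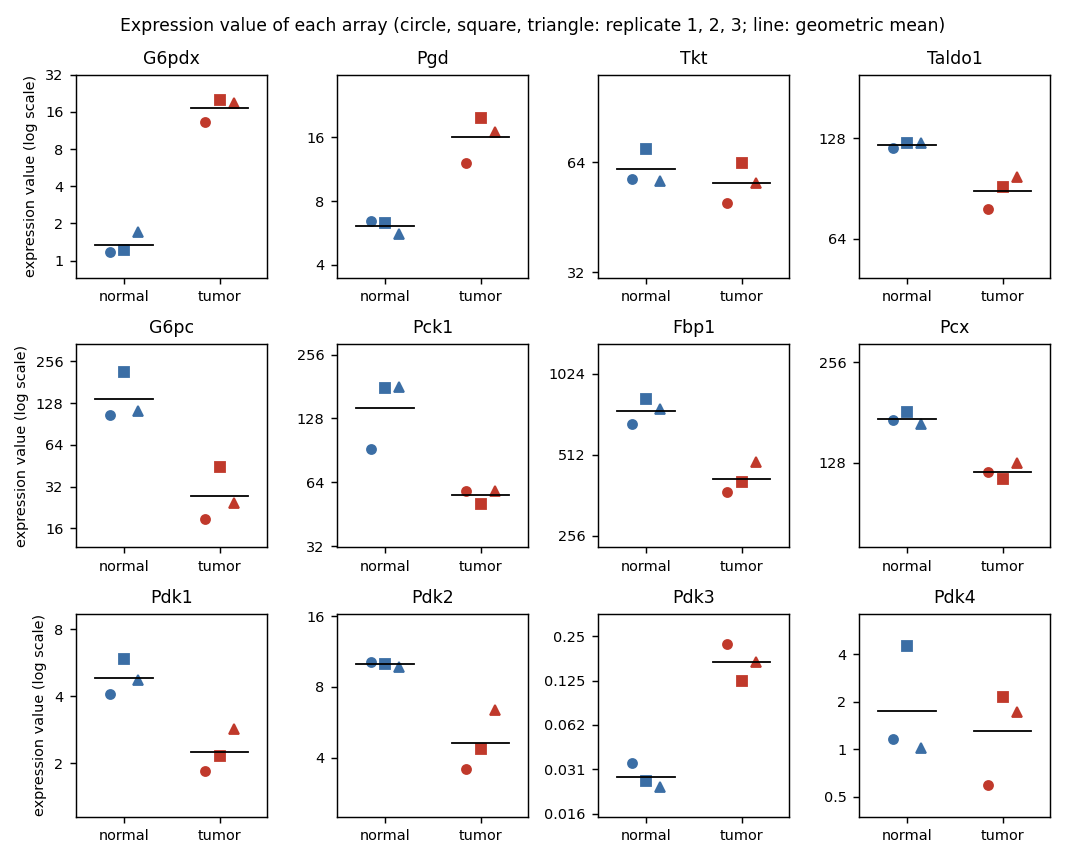
Expression value of each array (log scale, relative to the 75th percentile) for 12 genes of the pentose phosphate pathway (top), gluconeogenesis (middle) and the pyruvate dehydrogenase kinases (bottom); blue symbols are normal livers, red symbols tumors, and lines the geometric means. G6pdx and Pgd are higher and G6pc, Pck1, Fbp1, Pcx, Pdk1 and Pdk2 lower in all 3 tumors, Tkt and Pdk4 overlap, and Pdk3 was not well above background in the normal livers.

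G6pdx and Pgd rose together, and their 250 bases before the annotated start are printed with the same motifs in capitals (RefSeq, GRCm38.p6, minus strand for both). They lie at chrX:74428881.0-74429130.0 and, for the first of the 2 starts listed for Pgd, at chr4:149166706.0-149166955.0.
G6pdx: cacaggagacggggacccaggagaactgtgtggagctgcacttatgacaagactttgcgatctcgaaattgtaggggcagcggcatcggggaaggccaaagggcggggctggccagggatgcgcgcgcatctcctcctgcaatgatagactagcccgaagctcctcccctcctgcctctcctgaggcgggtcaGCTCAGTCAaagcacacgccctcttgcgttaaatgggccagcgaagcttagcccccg
Pgd: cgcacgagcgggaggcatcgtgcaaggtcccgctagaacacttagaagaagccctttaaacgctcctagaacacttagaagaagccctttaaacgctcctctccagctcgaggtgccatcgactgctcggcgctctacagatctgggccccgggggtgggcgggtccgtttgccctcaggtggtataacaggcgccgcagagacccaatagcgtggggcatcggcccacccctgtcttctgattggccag
G6pdx held GCTCAGTCA, which reads as TGACNNNGC on the other strand, 57 bases before the start, and Pgd held none of the 6 motifs. TGACNNNGC was in 10.2% of the 32851 promoters and in 4 of the 41 members with a listed promoter (9.76%). The E-box CACGTG was in 7 of 41 members (17.1%) against 6.02% of all promoters, and ACGTG in 15 (36.6%) against 16.6%. The members with an E-box are counted again under ACGTG. Members count 1 promoter a gene, while the 32851 hold every listed promoter and were not matched for GC content. The shares are therefore not like for like, and no enrichment was tested. Ldha and Pdk2 have 2 starts listed each, and only the first was searched. There Ldha held 2 E-boxes, 145 and 48 bases before that start, and Pdk2 held 1, 126 bases before it. TGACG was in 8 members (19.5%), CAAAACA in 2 (4.88%) and TATAAA in 1 (2.44%), which was G6pc.

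Fructose and galactose enter the same pathways through Khk and Galk1, and both were called. Khk, the ketohexokinase that starts hepatic fructose use, was at 268, 319 and 277 in normal livers and at 115, 170 and 194 in tumors. The groups did not overlap (-0.88 ± 0.21, adjusted p = 0.0223), its second probe gave -0.51 (adjusted p = 0.0518), and the call was lost without any 1 of the normal livers (adjusted p 0.0518 to 0.0751), with spike-in scaling (-0.66, adjusted p = 0.113) and without the filter on dim probes (adjusted p = 0.0729). Galk1, the galactokinase, was at 17.6, 15.7 and 16.1 in normal livers and at 26.3, 26.5 and 24.9 in tumors. All tumors were higher by a similar amount (0.65 ± 0.10, adjusted p = 0.00595).

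Of 86 further genes of these pathways with a probe, 75 were tested and 28 called (37.3%), 9 higher and 19 lower, a share near the 34.2% of all genes. Hkdc1, a hexokinase-like protein, was not well above background in normal livers (0.0669, 0.0991 and 0.0268) and read 2.05, 0.866 and 1.64 in tumors, at least 11-fold higher. It entered the test through the tumors alone. The adjusted p of its limma fit (0.00211) rests on normal values at background and does not test that bound. Slc16a7, a pyruvate and lactate carrier, was at 1.05, 1.09 and 1.01 in normal livers and at 4.48, 3.68 and 3.70 in tumors (1.91 ± 0.12, adjusted p = 0.000267), although its 3 probes ranged from -0.21 to 1.91. These, with Pygb and Pdp1, were the 4 largest called rises, and the place of Hkdc1 among them rests on normal livers at background. All 4 kept their calls under the alternatives other than the t-tests, but the size of the rise varied. It ran from 1.91 to 5.08 for Hkdc1, 3.11 to 4.52 for Pygb, 0.95 to 2.32 for Pdp1 and 1.13 to 2.13 for Slc16a7.

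The 4 largest called falls were in Ldhd, Gapdhs, Sord and Ppp1r3c. Ldhd, a mitochondrial dehydrogenase of D-lactate, was at 51.8, 56.4 and 47.9 in normal livers and at 7.42, 12.2 and 15.4 in tumors (-2.22 ± 0.27, adjusted p = 0.00245). Gapdhs, the sperm form of Gapdh, was at 0.733 to 0.923 in normal livers and at 0.105 to 0.346 in tumors (-2.10 ± 0.41, adjusted p = 0.0112), where 2 of the 3 tumors were well above background. Sord, which makes fructose from sorbitol, was at 155, 186 and 164 in normal livers and at 37.8, 64.0 and 62.8 in tumors (-1.66 ± 0.23, adjusted p = 0.00364). For Ldhd, Gapdhs and Sord the groups did not overlap. Under the alternatives other than the t-tests Gapdhs ran from -2.51 to -1.05. Among the 10 tested regulators of transcription and hormone response, Mlxipl, the carbohydrate response factor, was the only one called (-0.87 ± 0.15, adjusted p = 0.00722), while its other tested probe gave 0.04. The share called among all tested genes was 34.2%.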

How the data were processed

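Total RNA of 3 normal livers and 3 liver tumors was hybridised by the authors to Agilent SurePrint G3 mouse one-color arrays. The deposited scanner files hold intensities that the authors' Feature Extraction software had background-subtracted and detrended; its version is 10.7.3.1 in the file header and 12.0.3.1 in the submitters' notes. The deposited value table holds ratios of that intensity to the 75th percentile of the array, and was used as an alternative. Here each processed signal was divided by the 75th percentile over all 62976 spots and put on the log2 scale, outlier spots were dropped and spots of a probe averaged. A probe was tested if well above background on all 3 arrays of a group. Groups were compared with limma 3.58.1 in R 4.3.3 (lmFit, eBayes, Benjamini-Hochberg, threshold 0.05), checked on simulated data. A gene is represented by its tested probe of highest mean signal. Probes named only by their own identifier are left out of the 31997 genes. They were not removed from the counts of all tested genes, where each such probe counts as a gene. Isoform ratios were compared by exact permutation tests (two-sided, SciPy 1.17.1), adjusted over the 12 pairs compared, of which 4 are not reported here. Probes were named through RefSeq accessions (27229 of 55681 probes), symbols (3586), older symbols (565) or the name in the file (24301). All members, the partners in the reported isoform pairs, and the 4 largest called rises and falls of the other pathway genes are named. Members and lists were chosen with earlier results of these data known. Precision is limited by the number of arrays. Alternatives were normexp background correction (offset 50), quantile normalization, spike-in scaling, other filters, the probe mean, a trend in eBayes, the replicate number as a block, the methods' t-test, the deposited ratios, and leaving out each array. A "±" in the text is a standard error, with n = 3 in each group.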

Additional observations from a re-analysis of the deposited data

How the results depend on the processing

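Of the 16 called members, 7 stayed called under each alternative other than the t-tests: Pdk1, Pdk2, Pck1, G6pc, G6pdx, Pgd and Galk1. Spike-in scaling moved the median log2 fold change of all probes from -0.13 to 0.09, and left 4 members lower and 5 higher, 7 other pathway genes lower and 3981 genes called, against 11, 5, 19 and 6346. Among all genes the split was 2441 higher and 3905 lower, 2610 and 1371 with spike-in scaling, and 2769 and 3044 with quantile normalization. Without the filter on dim probes 6 members and 10 other pathway genes were lower and 3501 genes were called, and quantile normalization left 7 members lower. Leaving out 1 array gave 6 to 11 members lower and 4 to 7 higher, 11 to 21 other pathway genes lower and 3872 to 5533 genes called, and the fewest were without normal liver 2 for all but the members higher. The methods name a paired Student's t-test without saying what is paired. An unpaired t-test at an unadjusted p under 0.05 gave 6 members higher and 12 lower, 29 other pathway genes lower and 7755 genes. The study's further limits on fold change and expression level were not applied. After Benjamini-Hochberg the unpaired t-test gave 5 and 6 members and 4135 genes. Paired by number the t-test gave 5 and 9 members and 5767 genes unadjusted. After Benjamini-Hochberg it gave 0 members higher, 0 members lower, 0 other pathway genes higher, 0 lower and 0 of all genes, where limma called 6346. The labels give same-numbered samples no common mouse, so that pairing by number was not used. The correlations of their deviations were 0.07, 0.13 and 0.05, against -0.139 to 0.055 for differently numbered samples. These values do not settle whether the samples were paired. With the replicate number as a block limma called 4 members higher and 9 lower, 9 and 20 other pathway genes and 5417 genes, and Gpi1, Ldhb and Taldo1 lost their calls.

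Of 600 member values under the alternatives, 496 kept direction and call, 48 lost the call, 11 gained it and 45 changed sign. In each gene that changed sign the reported log2 fold change was smaller than its standard error. With normexp correction they were Hk1 (0.071), Pfkl (0.071), Gapdh (0.013), Pgam1 (0.038) and Pklr (0.066), with quantile normalization Hk1 (0.15), Pfkl (0.036), Gapdh (0.18), Pgam1 (0.14), Pklr (0.050) and Tkt (0.092), with spike-in scaling Hk1 (0.21), Pfkl (0.22), Gapdh (0.19), Pgam1 (0.15), Pklr (0.21), Pfkfb3 (0.16), Pdha1 (0.092) and Tkt (0.10), and with the mean of the probes Hk1 (0.64), which then passed the threshold (adjusted p = 0.0448). The RefSeq probe of Hk1, chosen after the values were seen, gave 1.11. Without 1 array the values ran from -0.082 to 0.42 for Pfkm over Pfkl, -0.28 to 0.83 for Pfkfb3 over Pfkfb1, -0.20 to 0.16 for Slc2a1, -0.074 to 0.028 for Hk1, -0.31 to 0.19 for Pfkl, -0.057 to 0.41 for Aldoc, -0.14 to 0.13 for Tpi1, -0.12 to 0.054 for Gapdh, -0.28 to 0.072 for Pgam1, -0.11 to 0.17 for Pklr, -0.81 to 0.56 for Pfkfb3, -0.29 to 0.036 for Pdha1 and -0.82 to 0.25 for Pdk4. Causes were not tested. The number of arrays, and signal near background for Hk2, Pck2 and Pdk3, limit what could be measured.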
